A study of Mus musculus with 6 samples.

Results

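The mitosis genes described here are 36 mouse genes that act between mitotic entry and the separation of the daughter cells. They comprise the entry kinases and cyclins, the chromosomal passenger complex, kinetochore and spindle checkpoint proteins, the anaphase machinery, spindle motors, cytokinesis factors and 2 proteins of mitotic chromosome structure. Members were chosen by gene name, with earlier results of these data known. The level of a gene was taken as the log2 intensity averaged over its named probe sets, and under that rule 35 of the 36 genes were measured, out of 20059 genes in all. Ccnb1, the B-type cyclin partner of Cdk1, had no probe set named under the rule and was not measured here. Cdk1 itself was found under its older name, Cdc2a.

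The study used whole-transcript expression arrays of mouse bone-marrow KLS cells, the Kit+, lineage-negative, Sca-1+ fraction that holds blood stem and early progenitor cells. It compared 3 wild-type samples with 3 Dnmt3a+/- samples, which carry 1 intact and 1 disrupted copy of Dnmt3a, a de novo DNA methyltransferase. Both groups were KLS cells handled by the same protocol, in which 20 ng of TRIzol-extracted RNA was amplified and biotin-labelled for each array. The labels used here name no strain, age, sex or additional treatment, and they do not say whether the arrays of a genotype come from separate or pooled mice. All p-values below therefore measure only the spread between these arrays, which may be technical. In bulk samples such as these, fewer dividing cells and less RNA per dividing cell cannot be told apart.

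During mitosis, Cdk1 with its cyclins and the Polo and Aurora kinases condense the chromosomes and build the spindle, and the checkpoint holds Cdc20 in check until every kinetochore is attached. The anaphase promoting complex with Cdc20 then tags cyclin B and securin for destruction, which frees separase to cut cohesin. The messenger RNAs of these proteins are made late in the cell cycle and are scarce in resting cells, so that in bone marrow they are widely read as a mark of dividing cells, whereas the most primitive blood stem cells divide seldom.

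Many late-cycle promoters are known to carry a cell cycle genes homology region, TTTGAA or the variant TTCGAA. Lin54 contacts this element as part of the MuvB complex, which represses genes in resting cells with Rbl2 and E2f4 and joins Mybl2 and Foxm1 in cycling cells. CCAAT boxes bound by NF-Y often lie upstream of it. Promoters from RefSeq (GRCm38.p6, from 250 bases before to 50 bases after each start) were present for 32 of the 36 genes and were searched on both strands. No motif searched contains another. TTTGAA occurred in the promoters of 25 of the 32 members (78.1%), against 20.2% of 27025 genes with a promoter. TTCGAA occurred in 3 members (9.38%, against 1.8% of genes). CCAAT was found in 25 members (78.1%) against 41.1% of genes. GCGGGAA, a core of the E2F site of genes expressed earlier in the cycle, was in 0 members and in 5.29% of genes. Aurkb, Incenp, Tpx2 and Kif20a had no promoter entry.

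**Figure D1:**
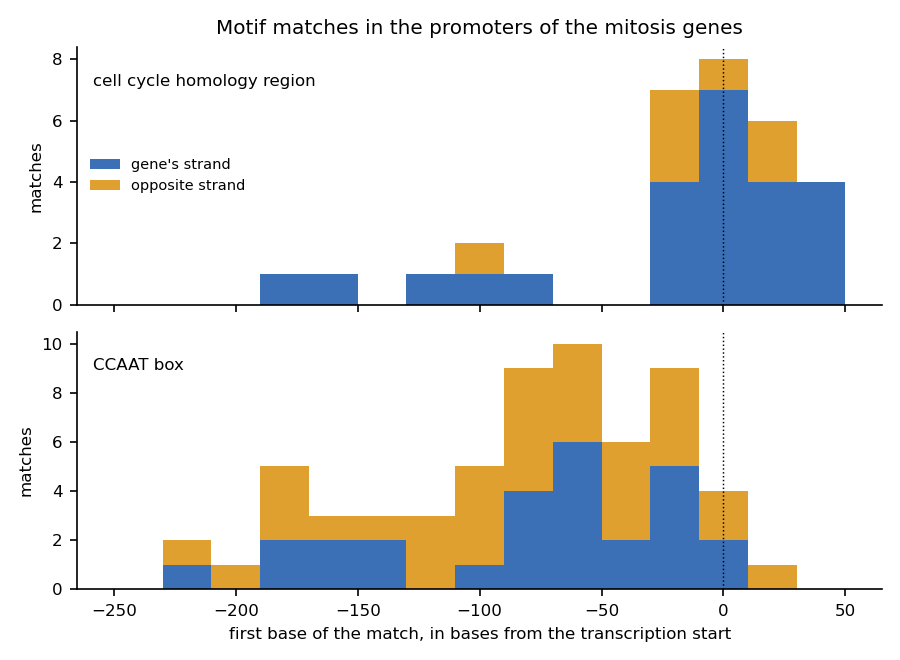
Number of matches of TTTGAA (top, the cell cycle homology region) and CCAAT (bottom) in the promoters of 32 mitosis genes, by distance of the match from the transcription start in bases, with the matched strand in colour and the start as a dotted line. The upper panel gathers around the start, where TTTGAA lies within 50 bases in 23 genes, and the lower panel peaks upstream of it.

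Within 50 bases of the start, a window chosen after the positions were seen, TTTGAA stood in 23 members (71.9%) against 5.72% of genes, and CCAAT in 18 members (56.2%) against 15.6%. The 7 stretches below run from 120 bases before to 20 bases after the start, 5′ to 3′ on the gene's strand, on GRCm38.p6. They are shown as examples, from entry (Cdk1) through anaphase (Cdc20, Espl1, Pttg1) to the spindle (Kif11, Hmmr, Aspm). Capitals mark TTTGAA and CCAAT, or their reverse complements TTCAAA and ATTGG. The stretches lie for Cdk1 at chr10:69352893-69353032 (minus strand), Cdc20 at chr4:118437324-118437463 (minus strand), Espl1 at chr15:102296173-102296312 (plus strand), Kif11 at chr19:37376262-37376401 (plus strand), Hmmr at chr11:40733418-40733557 (minus strand), Aspm at chr1:139454653-139454792 (plus strand) and Pttg1 at chr11:43425962-43426101 (minus strand). 
Cdk1: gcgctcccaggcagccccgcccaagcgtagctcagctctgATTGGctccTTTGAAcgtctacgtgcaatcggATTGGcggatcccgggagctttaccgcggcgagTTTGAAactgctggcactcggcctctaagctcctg
Cdc20: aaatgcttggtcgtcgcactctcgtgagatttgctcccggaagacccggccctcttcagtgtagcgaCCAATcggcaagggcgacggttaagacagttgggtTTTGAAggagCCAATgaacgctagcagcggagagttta
Espl1: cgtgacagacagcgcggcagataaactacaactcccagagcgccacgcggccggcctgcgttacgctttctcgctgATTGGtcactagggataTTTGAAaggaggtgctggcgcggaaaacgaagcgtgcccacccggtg
Kif11: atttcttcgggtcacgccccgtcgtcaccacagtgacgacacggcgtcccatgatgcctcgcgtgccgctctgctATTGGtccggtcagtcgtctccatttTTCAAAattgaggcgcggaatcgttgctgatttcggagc
Hmmr: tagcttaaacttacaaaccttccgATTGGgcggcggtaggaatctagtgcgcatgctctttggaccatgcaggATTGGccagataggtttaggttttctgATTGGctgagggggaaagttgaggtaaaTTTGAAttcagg
Aspm: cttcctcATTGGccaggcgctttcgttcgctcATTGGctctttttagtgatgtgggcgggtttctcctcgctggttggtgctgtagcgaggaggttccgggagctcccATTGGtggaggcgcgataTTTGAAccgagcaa
Pttg1: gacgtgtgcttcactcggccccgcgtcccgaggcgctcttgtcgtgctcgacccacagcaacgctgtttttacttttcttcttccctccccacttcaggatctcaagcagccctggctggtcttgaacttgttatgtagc
The first 6 stretches hold a TTTGAA or its complement close to the start, and each has at least 1 CCAAT further upstream. The stretch of Pttg1, the gene of securin, holds neither. A match of letters is a description of the sequence and not a measured site.

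Dnmt3a gave log2 intensities of 8.51, 8.70 and 8.50 on wild-type replicates 1 to 3 and 8.38, 8.20 and 8.20 on Dnmt3a+/- replicates 1 to 3. The genotypes did not overlap and the difference was -0.31 (SE 0.12, limma adjusted p = 0.631). The labels do not say which exons were disrupted. Median array intensities lay between 59.8 and 61.6. Each array's mean correlation with the other 5 over all genes was 0.938 to 0.949, except for Dnmt3a+/- replicate 2 at 0.904. With Benjamini-Hochberg adjustment over all genes, limma called 0% of them, that is 0 of 20059 (lowest adjusted p 0.535), while 1502 genes had an unadjusted p under 0.05. The KLS label was checked on 9 marker genes. Of these 8 were measured. On the 6 arrays the genes of the sort itself, Kit and Ly6a (Sca-1), read 10.59 to 10.80 and 8.30 to 8.66. Cd34 read 10.19 to 10.65, Flt3 9.80 to 10.60, Hlf 9.95 to 10.25, Procr 7.55 to 7.95, Slamf1 6.39 to 6.77 and Tek 6.48 to 7.29, and levels of different genes are not comparable on these arrays.

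The mitosis genes varied together from array to array, within each genotype as well as across both. With each gene set to its own wild-type mean, the median over the 35 genes was -0.35 on wild-type replicate 1, 0.14 on replicate 2 and 0.21 on replicate 3. The same median was -0.08, -0.45 and 0.05 on Dnmt3a+/- replicates 1 to 3. So 1 array of each genotype stood low. The other 4 lay between -0.08 and 0.21, with the Dnmt3a+/- arrays among them below the wild-type ones. The medians over all genes ranged only from -0.03 to 0.01. Wild-type replicate 1 was below the gene's wild-type mean for 33 of the 35 members and Dnmt3a+/- replicate 2 for 34, against 6 and 4 on wild-type replicates 2 and 3 and 27 and 15 on Dnmt3a+/- replicates 1 and 3.

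**Figure D2:**
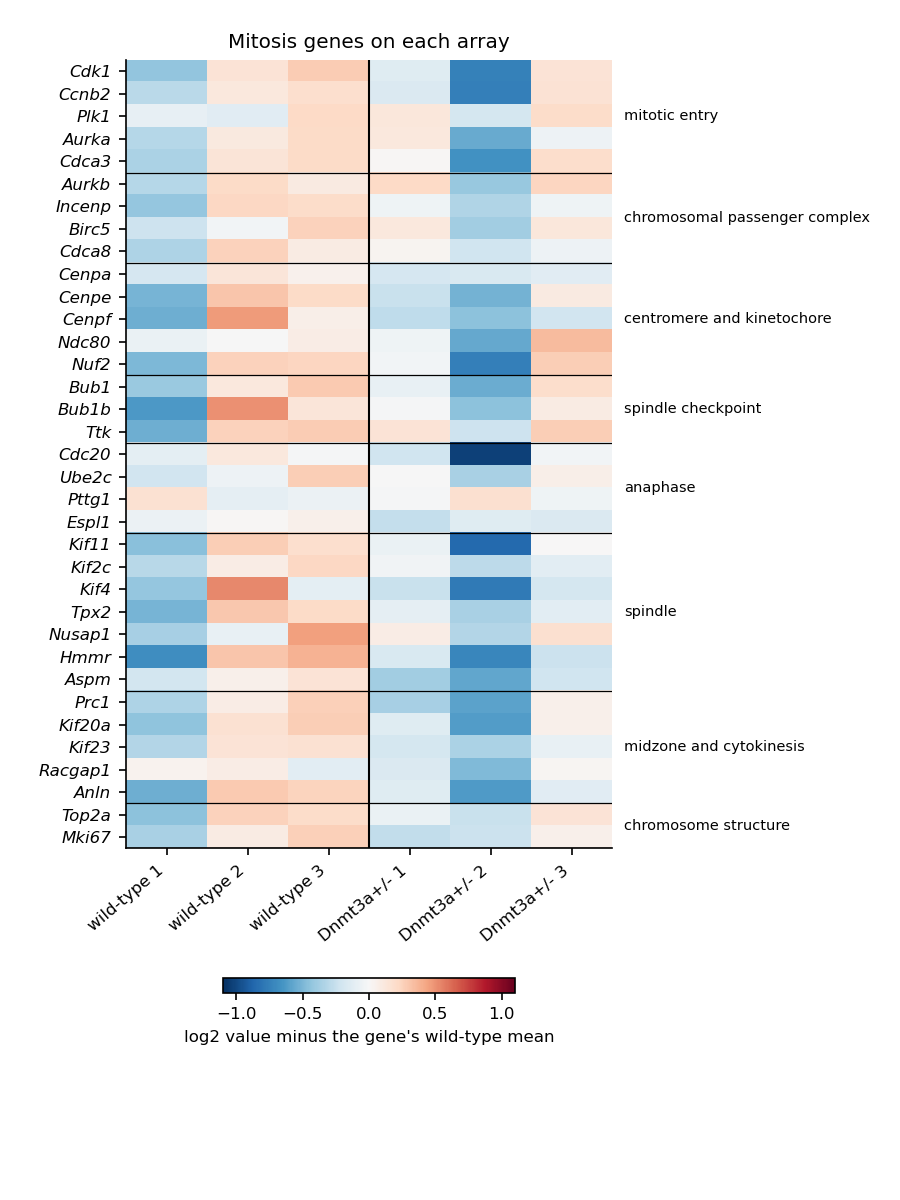
Heat map of the 35 mitosis genes (rows, grouped by role) on the 6 arrays (columns). Colour is the log2 intensity minus the gene's wild-type mean. The columns of wild-type replicate 1 and Dnmt3a+/- replicate 2 are low for nearly all genes, and Pttg1 runs the other way.

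Wild-type replicate 1 gave the lowest wild-type value for 32 of the 35 members, against 34.2% of all genes. Dnmt3a+/- replicate 2 gave the lowest value of its genotype for 31, against 43.2% of all genes. For 26 members those arrays were the 2 lowest of the 6, against 11.5% of all genes. Part of this was shared with other genes of like level. Among the 11473 genes whose mean level lay in the members' range (7.15 to 9.59), the array median was -0.16 on Dnmt3a+/- replicate 2 and -0.01 on wild-type replicate 1. Those arrays gave the lowest value of their genotype for 53.3% and 39.4% of these genes. On Dnmt3a+/- replicate 2 the median deviation ran from 0.15 in the dimmest of 10 equal level classes of genes to -0.27 in the brightest, and on wild-type replicate 1 from 0.05 to -0.05. With cyclic loess between arrays, which adjusts probe sets for trends with level, the members' medians on these arrays were -0.42 and -0.34. Whether a trend over genes remained after cyclic loess was not examined. The part of level in the members' genotype difference was not tested further.

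Over the 595 pairs of members the median Pearson correlation across the 6 arrays was 0.80 (Spearman 0.77), and 93.9% of pairs were above 0. All gene pairs had a median of 0.0074. These are descriptions: the points are the same 6 arrays, normalised together. The median pairwise value was 0.82 on deviations from the genotype means (Spearman 0.66). It was 0.53 on the 4 arrays other than wild-type replicate 1 and Dnmt3a+/- replicate 2 (Spearman 0.40). On those 4 arrays 78.3% of pairs were above 0. Kif20a, a kinesin of the spindle midzone, followed the mean of the other members most closely (r = 0.996). At a threshold of 0.9, chosen after the values were seen, 18 of 35 members followed the mean of the others, against 3.81% of all genes. The looser members were Plk1 (0.60), Racgap1 (0.59) and Espl1 (0.41).

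Pttg1 was the only member that ran against the rest (r = -0.97). Its values were 8.41, 8.15 and 8.19 on wild-type replicates 1 to 3 and 8.24, 8.43 and 8.20 on the Dnmt3a+/- replicates, so that it was highest on the arrays where the others were lowest. Securin, its product, holds separase inactive until anaphase. Pttg1 was also the only one of the 7 genes with a printed stretch that held no TTTGAA. Across the members with a promoter, however, the median correlation with the other members was 0.87 for the 25 genes with TTTGAA and 0.91 for the 6 measured genes without it. Its 9 probe sets did not move alike between genotypes: 4 were lower and 5 higher in Dnmt3a+/-.

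Between genotypes, 31 of the 35 mitosis genes had a lower mean in Dnmt3a+/- cells, against 54.3% of all genes. The median difference was -0.16 on the log2 scale, against -0.02 over all genes. Of the genes at like levels 65.2% were lower, with a median of -0.08. The members were chosen with earlier results of these data known, so these shares only describe them. No member passed the test: limma adjusted p-values ran from 0.631 to 0.984. At an unadjusted p under 0.05 there was 1 lower member, Aspm, beside 4.57% of all genes, and 0 higher members beside 2.92%. In 2 members, Aspm and Espl1, every Dnmt3a+/- array lay below every wild-type array, against 9.05% of all genes. In 0 members was the reverse seen, against 6.74%. Both counts of lower members are smaller shares of 35 than the background.

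The size of the differences was small beside the spread. The difference was smaller than the SD within genotypes in 30 of 35 members, against 60.9% of all genes, and smaller than the wild-type range in 31, against 75.2%. The members' median SD within genotypes was 0.328, against 0.172 over all genes. For a single value the exact permutation test of 3 against 3 arrays cannot give a two-sided p below 0.1.

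**Figure D3:**
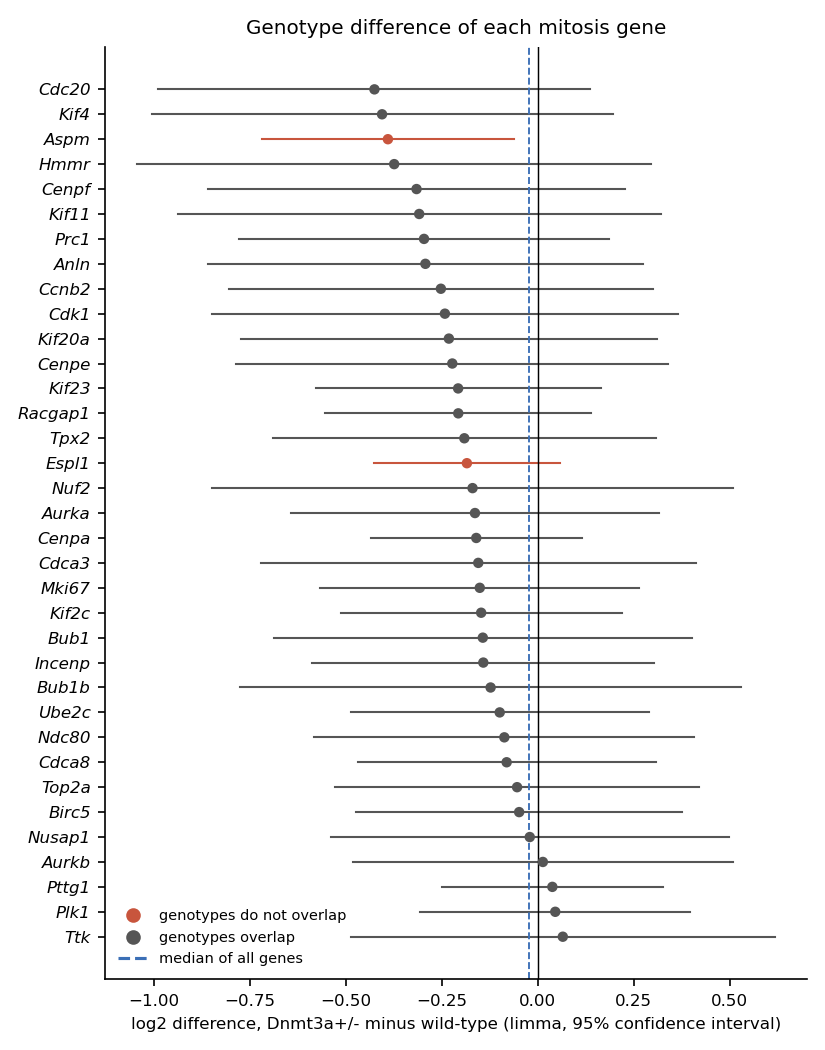
Difference between Dnmt3a+/- and wild type for each mitosis gene, on the log2 scale, with its 95% confidence interval from limma, sorted by size; the dashed line is the median of all genes and red marks genes without overlap. Of the 35 points 31 lie below 0, and Aspm (-0.39) is the only gene whose interval, -0.72 to -0.06, does not reach 0.

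The mitotic entry genes start the process. Cdk1, the kinase that drives entry, gave 7.99, 8.57 and 8.70 on the wild-type arrays and 8.28, 7.67 and 8.57 on the Dnmt3a+/- arrays. The genotypes overlapped, with the low values on wild-type replicate 1 and Dnmt3a+/- replicate 2, and the difference was -0.24 (SE 0.26). Ccnb2, a cyclin partner of Cdk1, differed by -0.25 (SE 0.24), or by -0.0013 without Dnmt3a+/- replicate 2, and Aurka, the kinase that matures centrosomes, by -0.16 (SE 0.21). Plk1, the Polo kinase, gave 8.30, 8.26 and 8.61 on the wild-type arrays and 8.51, 8.20 and 8.60 on the Dnmt3a+/- arrays, a difference of 0.05 (SE 0.15). Plk1 did not show the low wild-type replicate 1 of its neighbours. Cdca3, which promotes entry by degrading the Cdk1 inhibitor Wee1, differed by -0.16 (SE 0.25).

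The chromosomal passenger complex corrects faulty attachments and later guides cytokinesis. Aurkb, its kinase, gave 7.90, 8.42 and 8.31 on the wild-type arrays and 8.43, 7.80 and 8.44 on the Dnmt3a+/- arrays, a difference of 0.01 (SE 0.21). Each genotype had 1 low array, and the remaining 4 arrays were close to each other. Birc5, known as survivin, differed by -0.05 (SE 0.18), the scaffold Incenp by -0.14 (SE 0.19) and Cdca8, known as borealin, by -0.08 (SE 0.17).

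All 5 centromere and kinetochore genes were lower on average in Dnmt3a+/-, with a median difference of -0.17. Cenpf, a large kinetochore protein, read 7.21, 8.22 and 7.82 on the wild-type arrays and 7.47, 7.30 and 7.53 on the Dnmt3a+/- arrays, a difference of -0.32 (SE 0.24). Its wild-type values spread more widely (SD 0.505) than its Dnmt3a+/- values (SD 0.123). The kinesin Cenpe differed by -0.22 (SE 0.24), the centromeric histone H3 variant Cenpa by -0.16 (SE 0.12), and the microtubule-binding partners Ndc80 and Nuf2 by -0.09 (SE 0.21) and -0.17 (SE 0.29). All 10 probe sets of Cenpa were lower in Dnmt3a+/-.

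The spindle checkpoint members overlapped between genotypes. Ttk, the kinase that starts the signal, gave 6.99, 7.78 and 7.80 on the wild-type arrays and 7.67, 7.30 and 7.79 on the Dnmt3a+/- arrays. Its lowest value of all was a wild-type one, and its difference of 0.06 (SE 0.24) was the highest of any member. Bub1, a kinase of the checkpoint, differed by -0.14 (SE 0.24) and Bub1b, part of the inhibitor of Cdc20, by -0.12 (SE 0.28).

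Among the anaphase genes, Cdc20, the activator of the anaphase promoting complex, had the most negative difference of all members. Its values were 8.25, 8.48 and 8.35 on the wild-type arrays and 8.14, 7.33 and 8.33 on the Dnmt3a+/- arrays, giving -0.43 (SE 0.24, 95% interval -0.99 to 0.14). That difference rested on Dnmt3a+/- replicate 2, without which it was -0.12. Espl1, the separase that cuts cohesin, gave 7.37, 7.44 and 7.49 on the wild-type arrays and 7.17, 7.30 and 7.27 on the Dnmt3a+/- arrays. The groups did not overlap, the arrays of a genotype lay within 0.13 of each other, and the difference was -0.18 (SE 0.10, limma adjusted p = 0.646). Ube2c, the ubiquitin-conjugating enzyme of the complex, differed by -0.10 (SE 0.17).

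The 7 spindle genes had the lowest median difference of the roles, -0.31, and all 7 means were lower in Dnmt3a+/-. Aspm, which organises spindle poles, gave 7.14, 7.41 and 7.49 on the wild-type arrays and 6.97, 6.78 and 7.12 on the Dnmt3a+/- arrays. The highest Dnmt3a+/- array lay just under the lowest wild-type array, and the difference was -0.39 (SE 0.14, 0.763-fold, limma adjusted p = 0.631). Without 1 array at a time it was -0.30 to -0.49. Kif4, a chromosome-bound kinesin, gave 7.09, 8.05 and 7.41 on the wild-type arrays and 7.27, 6.74 and 7.33 on the Dnmt3a+/- arrays. Its difference of -0.41 (SE 0.26) became -0.14 without wild-type replicate 2, the highest array, and -0.22 without Dnmt3a+/- replicate 2, the lowest.

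Hmmr, a spindle-assembly factor, read 7.20, 8.19 and 8.27 on the wild-type arrays and 7.72, 7.17 and 7.65 on the Dnmt3a+/- arrays, a difference of -0.37 (SE 0.29). Kif11, the motor that pushes the spindle poles apart, read 8.16, 8.89 and 8.81 on the wild-type arrays and 8.54, 7.77 and 8.62 on the Dnmt3a+/- arrays, a difference of -0.31 (SE 0.27). Both genes had their lowest value of each genotype on the low arrays. The difference of Kif11 was -0.037 without Dnmt3a+/- replicate 2 and -0.54 without wild-type replicate 1. Tpx2, the activator of Aurka, differed by -0.19 (SE 0.22), the depolymerising kinesin Kif2c by -0.15 (SE 0.16) and the microtubule bundler Nusap1 by -0.02 (SE 0.22).

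**Figure D4:**
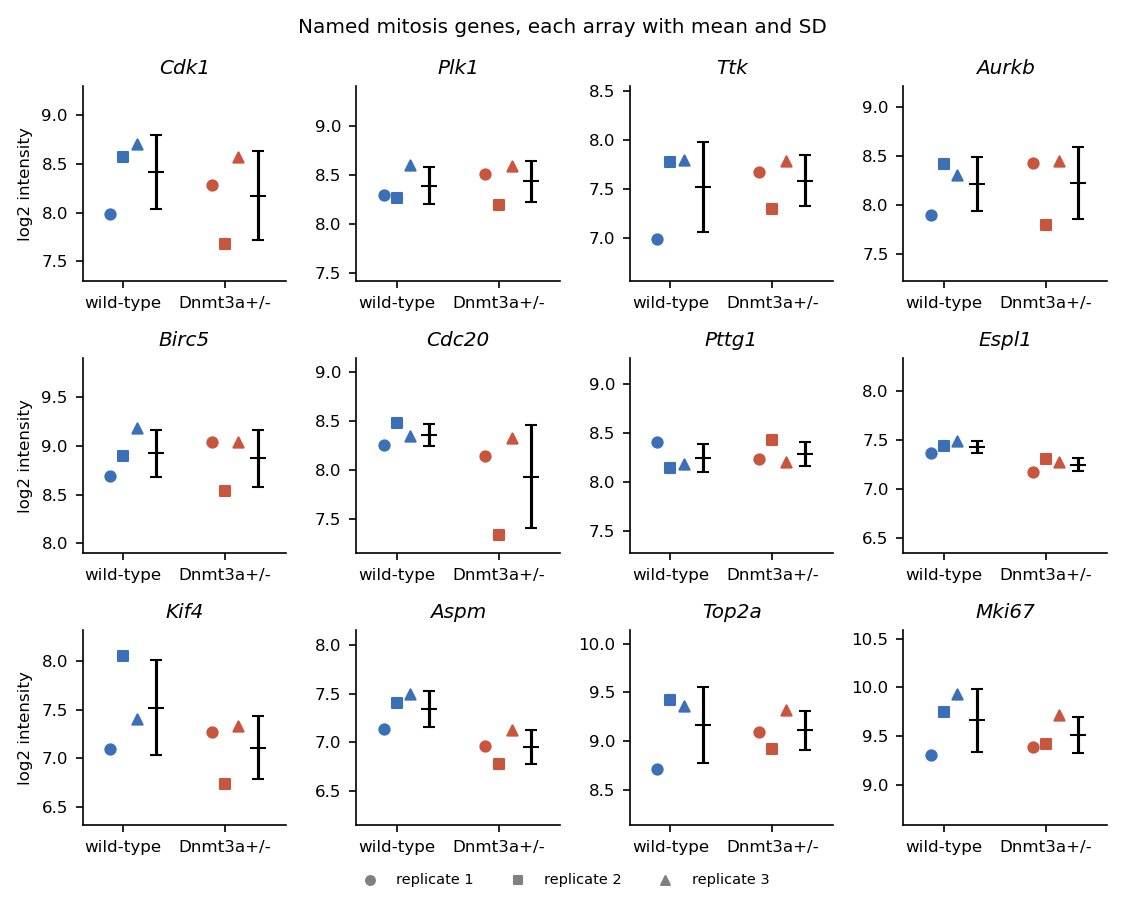
Log2 intensity of 12 mitosis genes on each array, wild type in blue and Dnmt3a+/- in red, with a marker shape for each replicate number and the mean and SD of each genotype (n = 3) in black. Aspm and Espl1 show no overlap between genotypes, while Cdk1 and Aurkb show 1 low array in each genotype.

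The 5 midzone and cytokinesis genes were lower on average in Dnmt3a+/-, with differences between -0.21 and -0.30. Prc1, which bundles midzone microtubules, differed by -0.30 (SE 0.21), and the scaffold Anln, known as anillin, by -0.29 (SE 0.25). Kif20a differed by -0.23 (SE 0.23), its fellow midzone kinesin Kif23 by -0.21 (SE 0.16), and Racgap1, the partner of Kif23, by -0.21 (SE 0.15). Racgap1 was the midzone gene in which wild-type replicate 1 was not low: it read 7.77, 7.81 and 7.62 on the wild-type arrays and 7.57, 7.25 and 7.75 on the Dnmt3a+/- arrays.

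The remaining pair are proteins of mitotic chromosomes. Top2a, the topoisomerase that untangles sister chromatids, gave 8.71, 9.42 and 9.37 on the wild-type arrays and 9.10, 8.93 and 9.32 on the Dnmt3a+/- arrays, a difference of -0.05 (SE 0.21). Mki67, whose product Ki-67 coats mitotic chromosomes and marks cycling cells, gave 9.31, 9.75 and 9.93 on the wild-type arrays and 9.39, 9.42 and 9.72 on the Dnmt3a+/- arrays, a difference of -0.15 (SE 0.18). For both, the lowest array of all was wild-type replicate 1.

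The genotype comparison depended on which array was counted. Without wild-type replicate 1, 34 of 35 members were lower, the median difference was -0.35, and in 20 members every Dnmt3a+/- array lay below both wild-type arrays, against 17.2% of all genes. In 1 member, Pttg1, every Dnmt3a+/- array lay above them. In that comparison 9 members were lower at an unadjusted limma p under 0.05, against 4.09% of all genes. They were Incenp, Cenpe, Cenpf, Kif4, Tpx2, Hmmr, Aspm, Kif23 and Anln, and 0 passed after adjustment. Wild-type replicate 1 was already known as the lowest wild-type array for 32 of the members, against 34.2% of all genes. Leaving it out therefore favoured high counts among the members beforehand, and no conclusion is drawn from the shares. Without Dnmt3a+/- replicate 2, 21 members were lower and the median was -0.04. The median was -0.09 without wild-type replicate 2, -0.06 without wild-type replicate 3 and -0.27 without Dnmt3a+/- replicate 3. With all arrays, Espl1 was lower without overlap under each processing setting tried, while the arrays of Aspm overlapped under 4 of them. With cyclic loess, or with no filter on dim probe sets, Espl1 was the 1 such member. With a filter at the 75th percentile the members without overlap were Cdc20, Espl1 and Racgap1, and with the median of the probe sets Cdc20, Espl1 and Kif2c.

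Single probe sets were compared in the same way. The 35 genes had 739 named probe sets above the table's median level. Of these 510 (69.0%) were lower in Dnmt3a+/-, against 50.3% of the 628415 probe sets above that level, of which 221209 were named. In 52 (7.04%, against 6.10%) every Dnmt3a+/- array lay below every wild-type array, and in 14 (1.89%, against 6.31%) every one lay above. Wild-type replicate 1 was the lowest wild-type array in 74.4% of the members' probe sets and Dnmt3a+/- replicate 2 the lowest of its genotype in 60.6%, against 34.8% and 37.1% of all those above that level. The probe sets compared were not matched for level. Among genes in the members' level range 65.2% were lower, and those arrays were the lowest of their genotype in 39.4% and 53.3%. Aspm had 36 probe sets, of which 31 were lower and 5 free of overlap, with differences from -1.66 to 0.57. Espl1 had 29, of which 20 were lower, 2 lower without overlap and 2 higher without overlap.

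Companion genes of the cycle showed which other machinery shared the array pattern. All 8 condensin genes, whose products compact mitotic chromosomes, were lower on average in Dnmt3a+/- (median -0.19), and 7 of the 8 followed the members' mean at r of 0.9 or more. Their array medians were -0.43 on wild-type replicate 1 and -0.49 on Dnmt3a+/- replicate 2, as low as those of the members. Over all genes 54.3% were lower, and among those in the members' level range 65.2% (median -0.08). Of 36 measured other kinetochore and checkpoint genes 27 were lower (median -0.12). Of 20 other spindle and cytokinesis genes 16 were lower (median -0.14). Without Dnmt3a+/- replicate 2 the medians of these 3 lists were -0.047, 0.054 and -0.0093, and without wild-type replicate 1 they were -0.43, -0.25 and -0.31. Among the other spindle and cytokinesis genes Kif18b, a kinesin with only 2 probe sets, differed by -0.40 (SE 0.12, limma adjusted p = 0.631) and did not overlap between genotypes. It was the 1 such gene of 20. Cenpo (-0.20, SE 0.11) was the 1 such gene of the 36 kinetochore and checkpoint genes. Over all genes 9.05% were lower without overlap.

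DNA replication genes, which act before mitosis, were low on the same arrays. Of 30 measured, 22 were lower with a median of -0.07, which was 0.12 without Dnmt3a+/- replicate 2, 0.035 without wild-type replicate 2 and -0.22 without wild-type replicate 1. All genes were lower in 54.3% of cases, and those in the members' level range in 65.2% (median -0.08). Of the 30 genes 11 followed the members at r of 0.9 or more. Their array medians were -0.33 on wild-type replicate 1 and -0.34 on Dnmt3a+/- replicate 2. Cdt1, the licensing factor, was the 1 replication gene of 30 free of overlap, 0.17 higher in Dnmt3a+/- (SE 0.10). Over all genes 6.74% were higher without overlap. Late-cycle regulators, among them Foxm1, Mybl2 and Ccna2, had 5 of 14 genes lower and a median of 0.02, which was -0.046 without wild-type replicate 1. Their array median was -0.21 on wild-type replicate 1 and -0.09 on Dnmt3a+/- replicate 2. Of these 14 genes 1 was lower and 1, Gtse1 (0.22, SE 0.14), higher without overlap.

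**Figure D5:**
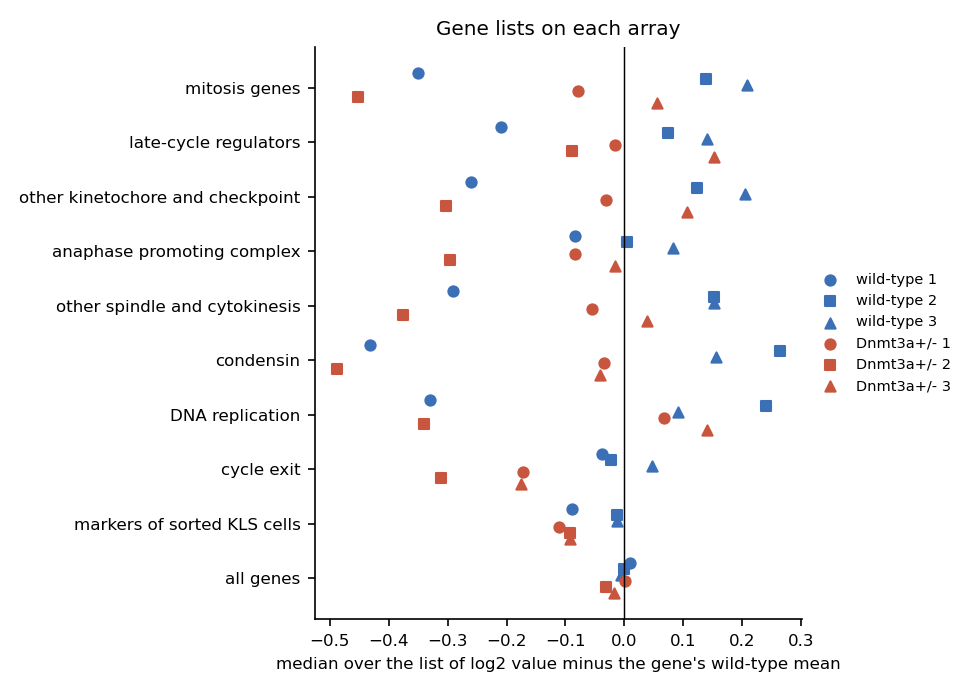
Array medians of the mitosis genes and of companion gene lists, as log2 intensity minus each gene's wild-type mean, for the 3 wild-type and 3 Dnmt3a+/- arrays. Mitosis, condensin and DNA replication genes dip on wild-type replicate 1 and Dnmt3a+/- replicate 2. Cycle exit genes lie lower on all 3 Dnmt3a+/- arrays, between -0.17 and -0.31.

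The anaphase promoting complex, the ligase that Cdc20 activates, had 13 of 15 subunits and partners lower on average (median -0.19). All genes were lower in 54.3% of cases, and those in the mitosis genes' level range in 65.2% (median -0.08). Anapc10 (-0.46, SE 0.22) and Anapc7 (-0.23, SE 0.12) were the genes of the complex without overlap, 2 of 15, beside 9.05% of all genes. Genes of cycle exit include Cdk inhibitors, the Rb family and anti-proliferative factors. They were lower in 14 of 16 cases, against 54.3% of all genes and 65.2% of those in the mitosis genes' level range, with a median of -0.22. The array medians of this list did not overlap: -0.04, -0.02 and 0.05 on the wild-type arrays and -0.17, -0.31 and -0.17 on the Dnmt3a+/- arrays. Genes in the mitosis genes' level range had medians of -0.04, -0.16 and -0.03 on the Dnmt3a+/- arrays. No comparison was matched to the levels of the cycle exit genes. The cycle exit list was chosen with earlier results of these data known, so its values describe it and test nothing. At an unadjusted limma p under 0.05 there were 3 lower genes of 16, and 4 were lower without overlap, beside 4.57% and 9.05% of all genes. They included Ccng2, an atypical cyclin of resting cells (-0.48, SE 0.13), and Tob1, an anti-proliferative factor (-0.51, SE 0.15), both with a limma adjusted p of 0.631. No cycle exit gene followed the members' mean at 0.9.

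Markers of other cells the sort could hold were set beside these values. All 8 maturing neutrophil markers were higher on average in Dnmt3a+/- (median 0.36), with a summed intensity of 4238 to 8497 on wild-type arrays and 7606 to 10997 on Dnmt3a+/- arrays. Their array medians were 0.37, -0.59 and 0.20 on the wild-type arrays and 0.79, 0.34 and 0.22 on the Dnmt3a+/- arrays, so wild-type replicate 2 was low where the mitosis genes were not. The summed intensity of the 8 measured KLS markers was 6416 to 6854 on the wild-type arrays and 5628 to 6162 on the Dnmt3a+/- arrays. Erythroid markers, of which 6 of 9 were measured, gave 875 to 1059 and 945 to 1005. Hbb-bt and Hba-a1 were among those not measured.

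Early granulocyte markers (4 of 5 measured) gave 8753 to 11462 on the wild-type arrays and 8124 to 12399 on the Dnmt3a+/- arrays. B-lineage markers (7 of 8) gave 968 to 1155 and 1086 to 1327, T and NK markers (7 of 8) 1832 to 2245 and 1656 to 2193. Macrophage markers (7 of 7) gave 1133 to 1310 and 1239 to 1456, and megakaryocyte markers (6 of 6) 894 to 1111 and 821 to 1186. The ranges of these sums overlapped between genotypes for every marker list except that of the KLS cells. A sum is weighted to its brightest genes. In the brightest of the 10 level classes of genes the medians were -0.05, 0.03 and 0.02 on the wild-type arrays. They were -0.07, -0.27 and -0.03 on the Dnmt3a+/- arrays, and the part of level in the KLS sum was not tested. Some single markers did not overlap between genotypes. Retnlg (0.98), Vcam1 (0.78), Mmp8 (0.64), Adgre1 (0.42), Cd3e (0.33), Gp1bb (0.33), C1qb (0.17) and Slc4a1 (0.15) were higher in Dnmt3a+/-. Csf1r (-0.73), Klrd1 (-0.71) and Kit (-0.11) were lower. Over all genes 6.74% were higher and 9.05% lower without overlap, and no marker passed adjustment. Normalised intensities have no true 0, so no marker could be called absent. By median, single macrophage markers correlated with the members' mean at -0.70, T and NK markers at -0.65 and B-lineage markers at -0.59. Megakaryocyte and maturing neutrophil markers gave -0.47 and -0.45, and early granulocyte, KLS and erythroid markers 0.18, 0.34 and 0.35. B-lineage array medians were 0.23 on wild-type replicate 1 and Dnmt3a+/- replicate 2, and -0.22 to 0.01 on the others. The dimmest level class of genes was also above 0 on these arrays (0.05 and 0.15). The part of other cells in the mitosis values was not tested.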

How the data were processed

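RNA of 3 wild-type and 3 Dnmt3a+/- KLS samples was hybridised to whole-transcript arrays. The deposited values are linear intensity per probe set, summarised by the authors with Partek and RMA, per the submitters' processing notes. The sources used here name no version, setting or genome build, so probe positions are not printed. The table holds 1256831 probe sets, of which 318760 carry 1 gene symbol and 6684 several (not used). Precision is limited by the number of arrays, which have no read depth.

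Intensities were taken to log2 without further scaling. Probe sets with a mean above the table's median (5.889) were kept, and those of a symbol were averaged, giving 20059 genes. Genotypes were compared on all genes with limma 3.58.1 in R 4.3.3 (lmFit, eBayes) and Benjamini-Hochberg adjustment at 0.05, after a check on simulated data. Every member is given. Of each companion list, only genes among its 3 lowest p-values carry values, besides markers. Names and promoters came from RefSeq GRCm38.p6 tables. Members and lists were chosen with earlier results of these data known. The labels do not say whether same-numbered samples are paired. Deviations of same-numbered arrays correlated at -0.05, -0.09 and 0.11, which cannot settle it with 3 arrays per genotype. Alternatives covered normalisation, filter, summary, offset, variance model, array weights, block and leaving out each array.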

Additional observations from a re-analysis of the deposited data

How the results depend on the processing

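Every member was refitted under 15 settings, and 0 results passed the adjusted threshold in limma. Of 315 member values that kept all arrays, 9 had the opposite sign. With the median of the probe sets, Plk1 was -0.023, Aurkb -0.013, Birc5 0.10 and Nusap1 0.17. With a filter at the 75th percentile, Aurkb was -0.00098 and Nusap1 0.056. Nusap1 was 0.011 with cyclic loess and 2.2e-05 with a second quantile normalisation, and Birc5 was 0.0059 with array weights. The cause was not tested.

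Members lower without overlap numbered 1 with cyclic loess (Espl1), 1 with no filter on dim probe sets (Espl1), 3 with a filter at the 75th percentile (Cdc20, Espl1, Racgap1), 3 with the median of the probe sets (Cdc20, Espl1, Kif2c), and 2 to 20 when 1 array was left out. Lower members at an unadjusted p under 0.05 numbered 0 with no filter, 0 with the median of the probe sets, 3 with array weights and 0 to 9 with 1 array left out. Over all genes there were 2593 at an unadjusted p under 0.05 with array weights, and 925 to 1928 with 1 array left out. The median of the anaphase promoting complex ran from -0.26 to -0.068, and that of cycle exit from -0.30 to -0.17, with 1 array left out. Likewise DNA replication ran from -0.22 to 0.12, other kinetochore and checkpoint genes from -0.25 to 0.054, late-cycle regulators from -0.046 to 0.10, condensin from -0.43 to -0.047 and other spindle and cytokinesis genes from -0.31 to -0.0093. Late-cycle regulators also had the opposite sign with array weights (-0.024) and with no filter (-0.0057). The median correlation of the members was 0.53 on 4 arrays, a comparison chosen after seeing the data, as were cyclic loess and deviations from genotype means for it.

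With 1 array left out, 16 members changed sign and 19 kept it, though some of those came near 0 (Ccnb2 -0.46 to -0.0013, Mki67 -0.33 to -0.018, Incenp -0.36 to -0.030, Kif11 -0.54 to -0.037). The ranges were -0.32 to 0.030 for Aurka, -0.14 to 0.23 for Aurkb, -0.16 to 0.12 for Birc5, -0.35 to 0.058 for Bub1, -0.44 to 0.13 for Bub1b, -0.33 to 0.10 for Cdca3, -0.25 to 0.045 for Cdca8 and -0.46 to 0.0081 for Cdk1. They were -0.31 to 0.15 for Ndc80, -0.42 to 0.12 for Nuf2, -0.20 to 0.20 for Nusap1, -0.035 to 0.165 for Plk1, -0.032 to 0.12 for Pttg1, -0.28 to 0.072 for Top2a, -0.20 to 0.21 for Ttk and -0.21 to 0.034 for Ube2c. With the replicate number as a block, 31 members were lower with a median of -0.16, 2 without overlap, and 0 genes passed adjustment. Whether the replicate number stands for a pairing is not known.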
